A study of Mus musculus with 12 samples.

Results

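The genes of the cytosolic ribosome were followed across 12 RNA sequencing libraries of MOC2 cells. They were taken as every protein-coding row whose symbol has the ribosomal protein form (Rpl or Rps with a number and, in some, a closing letter), together with Rplp0, Rplp1, Rplp2, Rpsa and Fau. Ribosomal S6 kinases were left out. The rule gave 84 of the 55421 Ensembl rows of the deposited count table, 33 of the small subunit and 51 of the large subunit. Of these, 81 had enough counts to be tested. The other 3, Rpl3l, Rpl10l and Rpl39l, held 42, 15 and 5 counts over all 12 libraries. Rpl3l is known as the striated muscle paralogue of Rpl3, and Rpl10l and Rpl39l as paralogues used in the testis. Rps4l is not analysed here.

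MOC2 is a mouse oral squamous cell carcinoma line. It was sampled as the derivative MOC2-25, labelled EV-Proficient, and the derivative MOC2-27, labelled EV-Deficient, EV standing for extracellular vesicle, the membrane particles that cells shed. Both were labelled either DMSO, the solvent control, or paclitaxel at 600 nM for 48 h, a microtubule-stabilising drug given to induce senescence. There were 3 libraries in each of the 4 groups. The labels do not name the gene altered in the EV-Deficient cells, and each EV label is 1 derivative line, so EV status and any other difference between the lines cannot be told apart. Nothing says that the libraries of a group came from separate cultures, so p-values measure the spread between these libraries, which may be technical.

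A ribosome has a small subunit, which reads the mRNA, and a large subunit, which joins the amino acids. Each is built from ribosomal RNA and ribosomal proteins, and most of these proteins are present in a single copy per ribosome. Their mRNAs are among the most abundant in growing cells. They are known to begin with a run of pyrimidines, the 5′ terminal oligopyrimidine (TOP) tract, through which mTORC1 and the RNA-binding protein LARP1 control their translation and stability. The values below are polyadenylated RNA levels and do not measure ribosomes or translation.

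RefSeq start regions on GRCm38.p6 were available for 64 of the 84 members. A run of at least 8 C or T bases on the gene's strand, within 50 bases of the annotated start, was found in 53 of them (82.8%), against 39.3% of 27025 genes. The 30 bases around the start (10 before it and 20 from it on) are shown for members the results turn on, with the longest pyrimidine run of the window in capitals. Rps6, Fau, Rplp2 and Rps9 fell with paclitaxel in the EV-deficient libraries, Rpl35 and Rpl23 did not, and Rpl7l1 and Rpl22l1 are paralogues that fell under both EV labels.
Rps6 (chr4:86857348-86857377, minus strand): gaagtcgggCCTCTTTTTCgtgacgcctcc
Fau (chr19:6057937-6057966, plus strand): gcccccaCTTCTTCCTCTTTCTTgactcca
Rplp2 (chr7:141447641-141447670, plus strand): cagcgTCTTCCTTTCgccgccggacgccgc
Rps9 (chr7:3704031-3704060, plus strand): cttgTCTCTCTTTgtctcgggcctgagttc
Rpl35 (chr2:39005112-39005141, minus strand): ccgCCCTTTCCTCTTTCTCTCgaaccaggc
Rpl23 (chr11:97782420-97782449, minus strand): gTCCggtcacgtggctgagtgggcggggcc
Rpl7l1 (chr17:46782637-46782666, minus strand): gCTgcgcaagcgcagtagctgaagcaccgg
Rpl22l1 (chr3:28805498-28805527, plus strand): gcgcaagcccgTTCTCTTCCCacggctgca
Among the windows shown, the longest runs were 18 bases in Rpl35 and 16 in Fau, and Rpl7l1 had no run above 2 bases. Rps19 and Rplp0, which also fell in the EV-deficient libraries, are not shown. Their longest runs in the window were 4, 4 and 7 bases at the annotated starts of Rps19 and 7 in Rplp0. Over the whole start region of 300 bases, the motif CCGGAAG, read on both strands, was present in 26 of 64 members (40.6%) against 9.93% of all genes. CACGTG, which is the same on both strands, was in 9.38% against 8.09%. TATAAA on either strand was in 10.9% against 15.7%. These are matches of letters in a window, not sites shown to be bound.

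The smallest library, EV-proficient paclitaxel replicate 3, held 23263472 counts and the largest, EV-deficient DMSO replicate 1, held 62955757. The first principal component of log2 levels (54.1% of the variance) separated paclitaxel from DMSO libraries, and the second (16.4%) did not follow the EV labels. Scores were 27.2 to 36.5 in EV-proficient DMSO and 34.2 to 43.5 in EV-deficient paclitaxel, against -24.7 to -20.5 in EV-deficient DMSO and -64.6 to -37.9 in EV-proficient paclitaxel. A row the authors added for a dngfr sequence showed the same split, at 5.29, 8.16 and 11.4 CPM (counts scaled to the library total) in EV-proficient DMSO and 12.1, 10.9 and 14.2 in EV-deficient paclitaxel. It stood at 1.68, 1.83 and 2.33 in EV-deficient DMSO and 2.6, 3.67 and 4.0 in EV-proficient paclitaxel. Whether labels were exchanged within a treatment was not tested, and the labels are used as deposited. Every direction between EV labels, and the contrast of the drug's effect between them, holds for the libraries as labelled. The average paclitaxel effect over both labels does not change if EV labels are exchanged within a treatment.

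The ribosomal protein mRNAs made up between 5.85% and 7.94% of each library's counts. The 3 EV-proficient DMSO libraries had 6.04%, 6.57% and 6.37%, and the EV-proficient paclitaxel libraries 7.33%, 7.94% and 7.16%, with no overlap. In the EV-deficient libraries the order was the opposite, at 6.95%, 6.82% and 6.86% under DMSO and 6.22%, 6.42% and 5.85% under paclitaxel, again with no overlap. The means were 6.33% ± 0.27 and 7.48% ± 0.41 (SD, n = 3) in EV-proficient DMSO and paclitaxel, and 6.88% ± 0.067 and 6.16% ± 0.29 (SD, n = 3) in the EV-deficient groups. Both subunits showed the same order of the 4 means: the small subunit stood at 2.55%, 3.11%, 2.82% and 2.52%, and the large subunit at 3.78%, 4.37%, 4.06% and 3.64%, in EV-proficient DMSO, EV-proficient paclitaxel, EV-deficient DMSO and EV-deficient paclitaxel. Counts on mitochondrial genes also rose with paclitaxel, from a mean of 0.653% to 0.878% in EV-proficient and from 0.644% to 1.27% in EV-deficient libraries. With those counts left out of the total, the ribosomal protein means were 6.37%, 7.54%, 6.92% and 6.24% in the same order of groups. The 275 rows of ribosomal protein pseudogenes held at most 0.0554% of a library. In bulk RNA, fewer cells of a kind and less RNA per cell cannot be told apart.

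**Figure D1:**
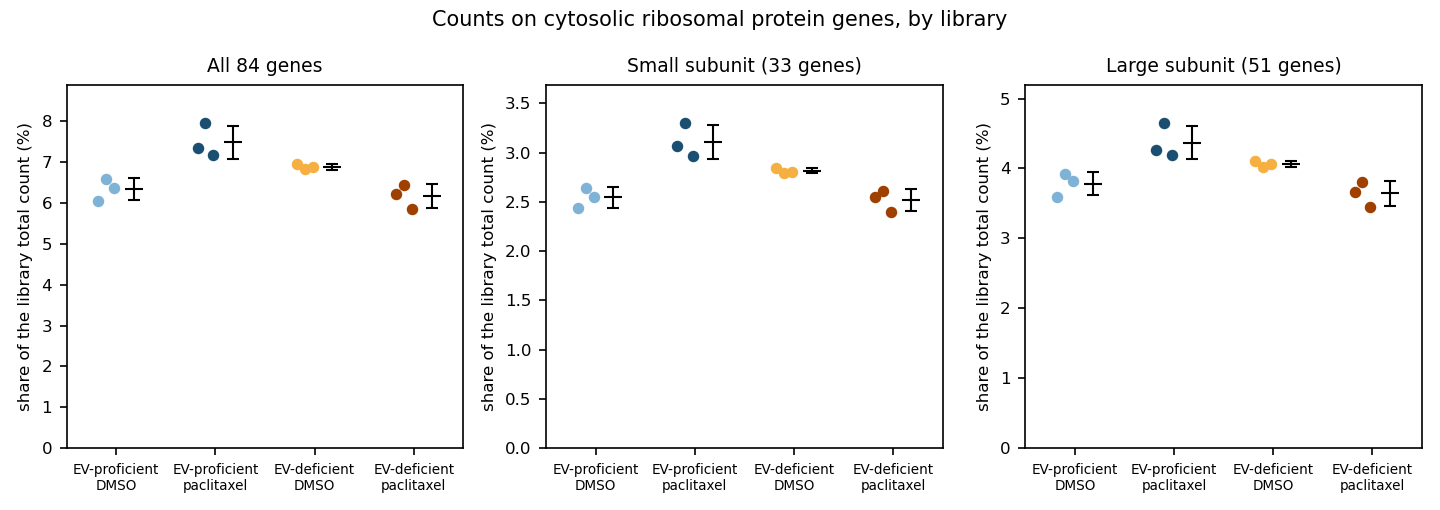
Share of each library's total count (%, vertical axis) on all 84 ribosomal protein genes, on the 33 small-subunit genes and on the 51 large-subunit genes, for the 4 groups (horizontal axis). Points are libraries, the dash and bar are the mean and SD of 3, and the share is higher under paclitaxel than DMSO in EV-proficient libraries (7.48% against 6.33%) and lower in EV-deficient ones (6.16% against 6.88%).

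Gene levels below are CPM on library sizes scaled by trimmed mean of M values, a scaling that sets the typical gene near no change. The scaling factors were 0.89 to 0.94 in DMSO and 1.05 to 1.15 in paclitaxel libraries. Scaled levels of paclitaxel libraries are therefore lower, relative to DMSO, than the unscaled shares above. Per kilobase of transcript, the most abundant members over all libraries were Rplp0 (2525 CPM per kilobase), Rpl26 (2262) and Rps2 (2250), and Rps6 stood at 1306. Paralogues were lower, with Rps27l at 168, Rpl7l1 at 57.1 and Rpl22l1 at 47.3 CPM per kilobase, against 826 for Rps27, 1408 for Rpl7 and 154 for Rpl22. Rpl24 (0.42 CPM per kilobase), Rps10 (5.19) and Rpl13a (27.1) were also low. In GENCODE M21, 71.5%, 53.6% and 59.3% of their transcripts are covered by another gene on the same strand, so their levels are uncertain. Of the Rpl35 transcript, 68.3% is overlapped by a gene on the opposite strand. Members also share sequence with pseudogenes and paralogues, up to 98.7% of the 50-base words of Rps27, and how shared reads were counted is not given in the sources used here.

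The first comparison asked how the drug changed these mRNAs in EV-proficient cells. Paclitaxel split the members: 28 of 81 rose and 16 fell. Rpl17 and Rpl39, proteins that line the tunnel of the nascent chain, and Rpl5 rose by 34% to 49%, while Rpl7l1, a paralogue of Rpl7 known from large-subunit assembly, fell by 49.1%. The background was 31.1% of all 18108 tested genes higher and 27.1% lower, and the members' shares, 34.6% and 19.8%, lay near it in this fit. The median member changed by a log2 fold change of 0.08, against 0.05 over all tested genes. Without EV-proficient paclitaxel 2 it was -0.05, so the sign of this median rests on 1 library. The count of 28 was 17, 14, 10 and 18 without EV-proficient DMSO 3, EV-proficient paclitaxel 1, EV-proficient paclitaxel 2 and EV-deficient paclitaxel 1. The shares of all tested genes in those fits are not set beside these counts, so nearness to the background is not shown there. Calls are from edgeR's quasi-likelihood test with Benjamini-Hochberg adjustment over all tested genes at 0.05.

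Rpl17 stood at 621, 681 and 642 CPM in EV-proficient DMSO and at 945, 984 and 962 CPM in EV-proficient paclitaxel libraries. The groups did not overlap, and the log2 fold change was 0.57 ± 0.07 (SE; edgeR adjusted p = 5.2e-07). Rpl39 went from 191, 200 and 181 to 279, 268 and 253 CPM, a log2 fold change of 0.49 ± 0.07 (SE; edgeR adjusted p = 5.2e-06). Both were thus higher in every paclitaxel library than in any DMSO library of that label. Rpl5 and Rpl11 bind 5S RNA together and, outside the ribosome, are known to hold MDM2, the ubiquitin ligase of p53. Rpl5 (chr5:107900502-107909005 on GRCm38, plus strand, 8 exons) rose from 1258, 1361 and 1274 to 1763, 1826 and 1643 CPM (log2 fold change 0.43 ± 0.07, SE; edgeR adjusted p = 2.4e-05). Its partner Rpl11 did not pass, at 828, 898 and 809 CPM under DMSO and 759, 815 and 717 CPM under paclitaxel (log2 fold change -0.15 ± 0.06, SE; edgeR adjusted p = 0.052). Rps6, the substrate of S6 kinase, rose from 1023, 1112 and 1008 to 1329, 1421 and 1248 CPM (0.35 ± 0.07, SE). Rpl22 rose by a log2 fold change of 0.41, and Rps27a, which is made as a fusion with ubiquitin, by 0.23.

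Among called members, the largest falls in EV-proficient cells were in Rpl7l1, Rps10, Rpl41 and Rpl37a. Rpl24 had a lower value (-1.22) that was not called, at group means of 0.36 and 0.15 CPM. Rpl7l1 (chr17:46773907-46782672, minus strand, 7 exons) went from 188, 197 and 183 to 99.8, 96.7 and 92.4 CPM, a log2 fold change of -0.97 ± 0.07 (SE; edgeR adjusted p = 1.3e-10). All 3 paclitaxel libraries lay below every DMSO library. Rpl41, a very short protein, fell by 0.54 and Rpl37a by 0.46 on the log2 scale. Rps10 fell by 0.64, at levels of only 2.63 to 5.56 CPM. Rpl22l1, the paralogue of Rpl22, fell by 0.39, and Rps27l, a paralogue of Rps27 known as a p53 target, fell by 0.35. Rpl22 and Rps27 themselves rose, Rps27 by 0.26, so each paralogue moved against its partner under this label. On unscaled library totals neither Rpl22l1 nor Rps27l passed under either label. The P-stalk proteins Rplp0, Rplp1 and Rplp2, which recruit translation factors, did not pass (log2 fold changes -0.08, -0.06 and 0.15). Nor did Fau, a fusion of a ubiquitin-like protein with a small-subunit protein (-0.16).

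The second comparison asked the same of EV-deficient cells. There 70 of 81 members fell with paclitaxel and 1 rose, against 30.5% of all tested genes lower and 32.4% higher. The fall took in 31 of 33 small-subunit and 39 of 48 large-subunit genes. The median member had a log2 fold change of -0.49, against 0.07 over all tested genes, and only Rpl7l1 changed more than 2-fold. The largest falls were in Rpl7l1, Rps19, Fau and Rps9.

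Rps19 (chr7:24884371-24889806, plus strand, 6 exons), a small-subunit protein known from inherited anaemia, stood at 682, 626 and 646 CPM under DMSO and 327, 353 and 309 CPM under paclitaxel. The groups lay far apart, and the log2 fold change was -0.98 ± 0.09 (SE; edgeR adjusted p = 1.8e-09), a fall of 49.4%. In EV-proficient libraries the same gene stood at 505, 598 and 517 CPM under DMSO and 510, 611 and 462 CPM under paclitaxel, which overlapped. Fau fell from 878, 795 and 834 to 428, 426 and 415 CPM (log2 fold change -0.98 ± 0.08, SE). Rps9 fell from 1392, 1310 and 1303 to 711, 754 and 695 CPM (-0.89 ± 0.07, SE). In all 3 genes every EV-deficient paclitaxel library was below every other library of the 12.

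The P-stalk fell together under this label. Rplp0 (chr5:115559467-115563727, plus strand) went from 4209, 4001 and 3966 to 2544, 2494 and 2491 CPM, a log2 fold change of -0.69 ± 0.06 (SE; edgeR adjusted p = 1.7e-09). Rplp1 went from 1268, 1218 and 1378 to 729, 764 and 788 CPM (-0.76 ± 0.09, SE). Rplp2 (chr7:141447370-141451585, plus strand) went from 583, 586 and 637 to 367, 356 and 326 CPM (-0.78 ± 0.10, SE). None of the 3 overlapped between the treatments.

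The pair that binds 5S RNA moved unequally here too. Rpl11 fell by 0.59 on the log2 scale, from 972, 906 and 899 to 616, 642 and 588 CPM. Rpl5 was not called, at 1423, 1422 and 1381 against 1389, 1446 and 1149 CPM (log2 fold change -0.08 ± 0.07, SE; edgeR adjusted p = 0.31). Without EV-deficient paclitaxel replicate 3, the Rpl5 value was 0.002. Rps6 (chr4:86854660-86857412, minus strand, 5 exons) fell from 1286, 1206 and 1197 to 987, 1068 and 872 CPM (-0.33 ± 0.07, SE), against its rise under the other label. That fall rested on the scaling: Rps6 was not called with upper-quartile scaling (-0.15) or on library totals (-0.01), while its rise in EV-proficient cells was called in every setting run. Rps27a fell by 0.43. The paralogues Rpl7l1, Rpl22l1 and Rps27l fell by 1.30, 0.44 and 0.38, against 0.97, 0.39 and 0.35 in EV-proficient cells. Rpl23 was the 1 member called higher, at 1356, 1322 and 1338 CPM under DMSO and 1590, 1635 and 1362 CPM under paclitaxel (0.19 ± 0.06, SE; edgeR adjusted p = 0.014). Without EV-deficient paclitaxel replicate 1 or 2, or EV-deficient DMSO replicate 2 or 3, no member was called higher, and without EV-deficient paclitaxel replicate 3 there were 3. Rpl23 was not called with the GC offset per library described below (0.09), and turned to -0.21, called lower, when that offset was not centred.

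**Figure D2:**
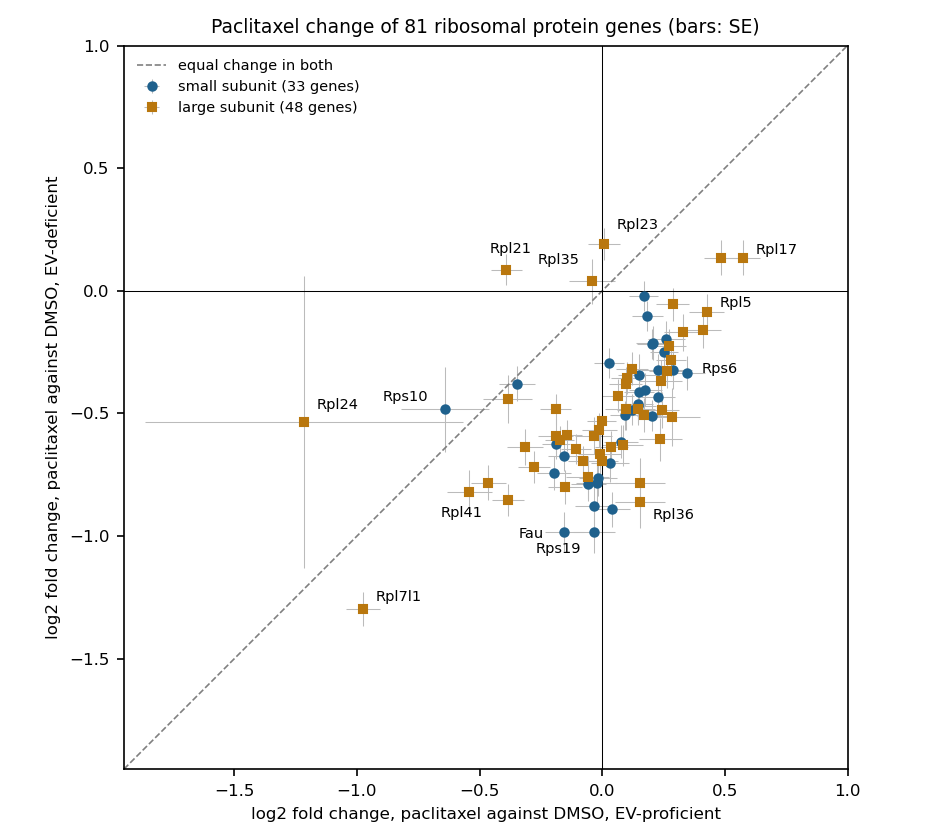
Log2 fold change of paclitaxel against DMSO in EV-proficient (horizontal axis) and EV-deficient libraries (vertical axis) for the 81 tested members, with standard errors; circles are small-subunit and squares large-subunit genes, and the dashed line marks equal change. Of the 81 genes, 76 lie below the line and 45 have a positive value in EV-proficient and a negative value in EV-deficient libraries.

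Set side by side, 21 members (25.9%) rose in EV-proficient and fell in EV-deficient libraries, against 3.93% of all tested genes. This count was 13, 8, 6, 12 and 13 without EV-proficient DMSO 3, EV-proficient paclitaxel 1, EV-proficient paclitaxel 2, EV-deficient paclitaxel 1 and EV-deficient paclitaxel 3, and 5 (6.17%, against 3.82% of all tested genes) with the GC offset not centred described below. The 21 include Rps3, Rps6 and Rpl3, and the ubiquitin fusion Rps27a. A further 34 (42.0%, against 8.06% of all tested genes) were not called under the first label and fell under the second, among them Fau, Rpsa and all 3 P-stalk genes. The share that fell under both, 15 members or 18.5%, equalled that of all tested genes, 18.5%, in this scaling, and was 23 members without EV-proficient paclitaxel 2. It was 11.1% against 14.5% with upper-quartile scaling, 4.94% against 10.1% on library totals and 42.0% against 28.3% with the GC offset not centred. Among these 15 were Rpl7l1, Rpl22l1, Rps27l, Rpl41 and Rpl37a. The share that rose in EV-proficient libraries without a call in EV-deficient ones, 8.64%, was near the 8.26% of all tested genes, and was 4 members without EV-proficient DMSO 3 or EV-proficient paclitaxel 2. With upper-quartile scaling it was 22.2% against 7.49% and on library totals 29.6% against 8.16%, so it was not near the background there, and with the GC offset not centred it was 0 members against 6.90%. These 7 were Rpl5, Rpl17, Rpl27a, Rpl30, Rpl39, Rps24 and Rps3a1. Rpl24 and Rpl35 were called under neither label; both, with Rpl21 and Rpl23, are named here after their values were seen. Rpl35 (chr2:39001580-39005624, minus strand) ran from 82.4 to 109 CPM over the 12 libraries with all 4 groups overlapping. Rpl24 had under 1 CPM in every library.

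Whether the drug's change differed between the EV labels was tested directly, as the interaction. It was called negative, that is lower in EV-deficient cells, for 72 of 81 members and called positive for 1, against 23.8% of all tested genes negative and 16.9% positive. By sign alone it was negative in 76 and positive in 5. The median member had an interaction of -0.55 on the log2 scale, against -0.04 over all tested genes. Of the 33 small-subunit genes 30 were called negative, and of the 48 large-subunit genes 42. The lowest values were in Rpl36, Rps19, Rplp2 and Rps9.

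Rpl36, a large-subunit protein, stood at 206, 268 and 261 CPM in EV-proficient DMSO and 265, 322 and 229 CPM in EV-proficient paclitaxel libraries, which overlapped. In EV-deficient libraries it went from 319, 297 and 360 to 181, 184 and 172 CPM, without overlap. The interaction was -1.02 ± 0.15 (SE; edgeR adjusted p = 9.3e-06). It was -0.95 ± 0.12 for Rps19, -0.94 ± 0.14 for Rplp2, -0.93 ± 0.10 for Rps9 and -0.83 ± 0.11 for Fau (SE). For Rps6 it was -0.68 ± 0.10 (SE; edgeR adjusted p = 1.0e-05). For the 5S-binding pair it was -0.51 ± 0.10 (Rpl5) and -0.44 ± 0.09 (Rpl11; SE). For Rpl7l1 it was -0.32 ± 0.10 (SE). The interaction did not pass for Rpl22l1 (-0.06 ± 0.14, SE; edgeR adjusted p = 0.79) or Rps27l (-0.03 ± 0.10, SE; edgeR adjusted p = 0.85), and the sign of both depended on the scaling.

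Rpl21 was the 1 member called with a positive interaction, 0.48 ± 0.09 (SE; edgeR adjusted p = 2.2e-04). It is a large-subunit gene at chr5:146832890-146837032, plus strand. It stood at 1220, 1295 and 1181 CPM in EV-proficient DMSO and fell to 933, 1012 and 875 CPM with paclitaxel. In EV-deficient libraries it was 1031, 1024 and 993 CPM under DMSO and 1097, 1145 and 995 CPM under paclitaxel, which overlapped. The gene shares 26.2% of its 50-base words, with 82 other genes, so part of its count may depend on how shared reads were assigned. This limit is not particular to Rpl21. The shared part was larger in Rpl5 (93.8%), Rps6 (84.6%) and Rpl11 (62.2%), and smaller in Rpl7l1 (9.19%).

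**Figure D3:**
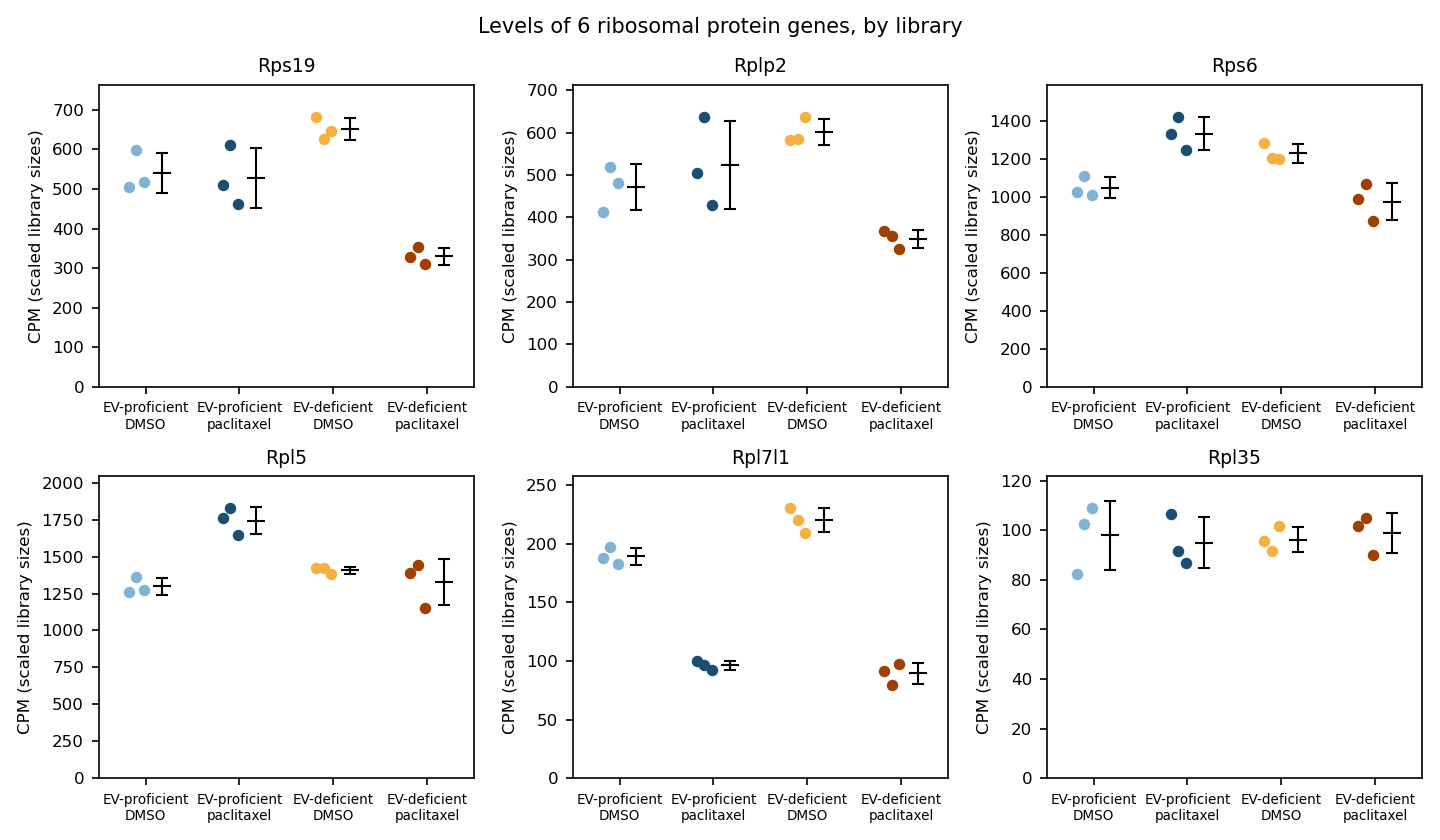
CPM on scaled library sizes (vertical axis, from 0) of Rps19, Rplp2, Rps6, Rpl5, Rpl7l1 and Rpl35 in the 4 groups; points are libraries, and the dash and bar are the mean and SD of 3. Rps19 and Rplp2 are lowest in EV-deficient paclitaxel, Rps6 and Rpl5 are highest in EV-proficient paclitaxel, Rpl7l1 is low under paclitaxel with either EV label, and Rpl35 overlaps between all groups.

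The EV labels were also compared within each treatment. Under DMSO, 23 members were called higher in EV-deficient than in EV-proficient libraries and 1, Rpl21, was called lower (log2 difference -0.28 ± 0.06, SE), against 12.4% of all tested genes higher and 10.6% lower. The largest differences were in Rpl36 (0.41), Rps21 (0.40), Rps12 (0.37) and Rplp2 (0.35). Rps21 stood at 206, 238 and 221 CPM in EV-proficient and 300, 282 and 298 CPM in EV-deficient DMSO libraries, without overlap (edgeR adjusted p = 4.3e-05). Rps6, Fau, Rps27a and Rpl7l1 were higher by 0.23, 0.23, 0.26 and 0.22, while Rplp0 (0.14), Rplp1 (0.16), Rpl5 (0.12), Rpl11 (0.13), Rpl22l1 (-0.06) and Rps27l (0.07) did not pass. The median member differed by 0.16, and all tested genes by 0.04. The count of 23 depended on single libraries: it was 10, 8, 8, 15, 9, 13 and 8 without EV-proficient DMSO 1, EV-proficient DMSO 3, EV-proficient paclitaxel 1, EV-proficient paclitaxel 3, EV-deficient DMSO 1, EV-deficient DMSO 3 and EV-deficient paclitaxel 1. The shares of all tested genes in those fits are not set beside these counts. An excess of members over all tested genes is therefore shown only for the fit of all 12 libraries.

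Under paclitaxel the order was reversed. In EV-deficient libraries 71 members were called lower and 1, Rpl21, was called higher (0.20 ± 0.06, SE, with groups that overlapped, and not called without EV-proficient paclitaxel 1, EV-proficient paclitaxel 3 or EV-deficient paclitaxel 1), against 21.8% of all tested genes lower and 16.0% higher. Rpl3, which lies near the site of peptide bond formation, stood at 1887, 2203 and 1721 CPM in EV-proficient and 1200, 1373 and 1037 CPM in EV-deficient paclitaxel libraries (-0.69 ± 0.09, SE; edgeR adjusted p = 2.8e-06). Rps9 (-0.68), Rps19 (-0.68) and Rpl10a of the L1 stalk (-0.61) followed, each without overlap. Fau, Rplp2, Rplp1, Rplp0, Rps6, Rps27a, Rpl5 and Rpl11 were lower by values from -0.60 to -0.31. Rpl7l1 (-0.11), Rpl22l1 (-0.11) and Rps27l (0.04), the paralogues that fell with the drug under both labels, did not pass. The median member differed by -0.37 and the median of all tested genes by -0.00. The comparison within DMSO and the comparison within paclitaxel share libraries with the drug comparisons above, so their values are set side by side and not counted as separate evidence.

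Across the 4 groups, 68 of 81 members had their lowest mean in EV-deficient paclitaxel. The highest mean was in EV-deficient DMSO for 51 and in EV-proficient paclitaxel for 26. The most frequent order, held by 27 members, ran from EV-deficient DMSO through EV-proficient DMSO and EV-proficient paclitaxel to EV-deficient paclitaxel, and was held by 15 with upper-quartile scaling. It was then no longer the most frequent: orders with EV-proficient paclitaxel above EV-proficient DMSO were held by 20 and 17, so which order is commonest depends on the scaling. Of the neighbours in that order, the libraries of both DMSO groups did not overlap in 53 of 81 members (65.4%), against 43.3% of all tested genes in either direction. EV-proficient DMSO and paclitaxel libraries did not overlap in 35 members (43.2%), against 62.3% of all tested genes, so these neighbours overlapped in most members. The paclitaxel groups did not overlap in 70 members (86.4%), against 44.1%. The ends of the order, EV-deficient DMSO and paclitaxel, did not overlap in 71 (87.7%), against 68.7%. For the average paclitaxel effect over both labels, 55 members fell and 5 rose, against 31.3% of all tested genes lower and 37.1% higher, with a median of -0.19 against 0.07.

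How many members were called, and on which side, depended on how libraries were scaled, because the whole distribution moved. On unscaled library totals the median of all tested genes was 0.25 in EV-proficient and 0.40 in EV-deficient cells, 52 members rose and 6 fell with the drug in the former, against 40.6% and 18.5% of all tested genes, and 10 rose and 43 fell in the latter, against 47.3% and 18.3%. The average effect then had 33 members higher and 24 lower (51.4% and 19.3% of all tested genes), with a median of 0.07. With upper-quartile scaling the split was 36 higher and 11 lower in EV-proficient cells (34.1% and 24.4% of all tested genes), 6 and 54 in EV-deficient cells (40.5% and 23.4%), and 16 and 38 for the average (43.2% and 25.4%). A scaling factor shifts every gene of a library alike, so the distance between the members' median and that of all tested genes is nearly fixed by construction and shows nothing about stability. Relative to all tested genes the median member stood at -0.56 in EV-deficient cells (-0.63 to -0.44 over all alternatives), 0.02 in EV-proficient cells (-0.06 to 0.12), -0.51 for the interaction (-0.59 to -0.45) and -0.26 for the average (-0.37 to -0.19). The value in EV-proficient cells was -0.06 without EV-proficient DMSO 1 or EV-proficient paclitaxel 2 and -0.01 without EV-proficient DMSO 3, and its sign is thus not settled.

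Members richer in G and C tended to have lower fold changes. Across the 81 genes, which share libraries and depth, the log2 fold change with paclitaxel and the GC content of the transcript (40.6% to 60.8%) had Spearman's rho = -0.54 in EV-deficient and -0.32 in EV-proficient cells. Over all tested genes the values were -0.19 and 0.01. For the interaction it was -0.34 among members and -0.25 over all genes. With a GC offset per library in the model, chosen after seeing the data, rho among members was -0.08 in EV-deficient cells, -0.26 in EV-proficient cells and 0.18 for the interaction. In EV-deficient cells 70 then fell and 1 rose, against 31.6% and 31.7% of all tested genes. The interaction was called negative for 71 members and positive for 1 (25.1% and 16.7% of all tested genes), and EV-proficient cells had 32 higher and 17 lower (31.7% and 28.1%). When the offset was not centred, the same 3 values of rho were 0.05, -0.38 and 0.44, and EV-proficient cells had 5 members higher (6.17%) and 35 lower (43.2%), against 23.6% and 36.7% of all tested genes.

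**Figure D4:**
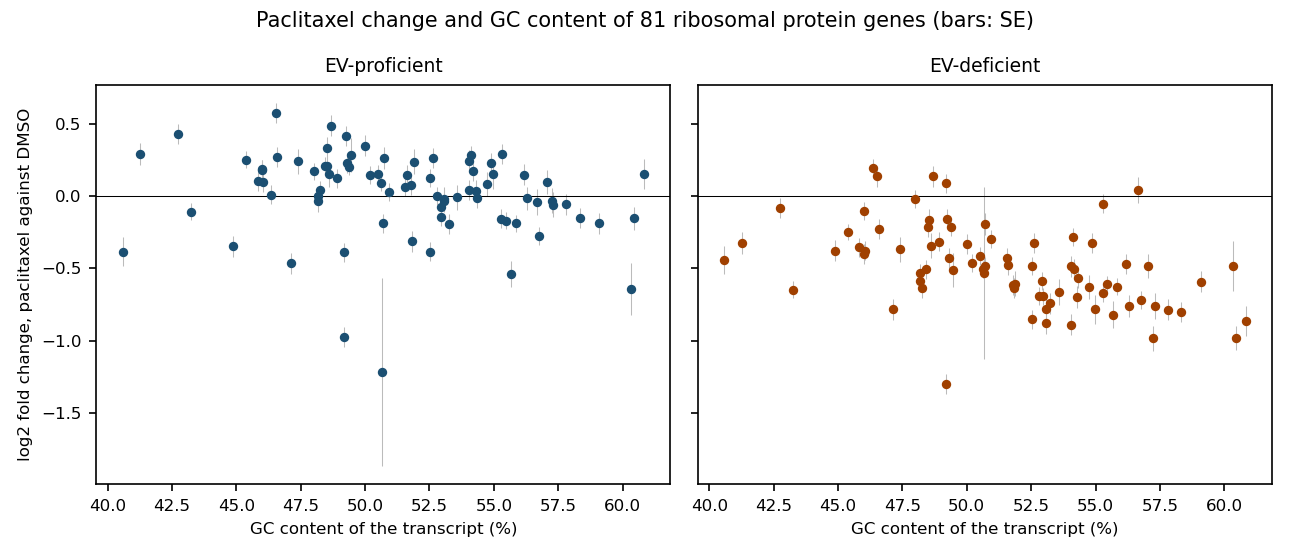
Log2 fold change of paclitaxel against DMSO (vertical axis, bars are SE) against the GC content of the transcript in percent (horizontal axis) for the 81 tested members, in EV-proficient (left) and EV-deficient libraries (right). Points slope down in both panels, with rho = -0.32 and -0.54, and nearly all points lie below 0 in the right panel.

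Genes that build and regulate ribosomes were read in the same fits, where 27.1% of all tested genes fell and 31.1% rose in EV-proficient cells and 30.5% fell and 32.4% rose in EV-deficient cells. Ribosome assembly factors fell in every case measured: 28 of 28 tested were lower with paclitaxel under both EV labels, with medians of -0.95 and -1.32. Rrp12, which serves the export of pre-ribosomes, had the lowest values (-2.04 ± 0.11 and -2.27 ± 0.11, SE). Npm1, a nucleolar chaperone, had -0.52 ± 0.06 and -1.14 ± 0.06 (SE). Of 12 genes of RNA polymerase I transcription, 9 fell and 1 rose in EV-proficient, and 10 fell and 1 rose in EV-deficient cells. Polr1b, a core subunit, had -1.32 and -1.69. Mitochondrial ribosomal proteins, the counterparts in the organelle, fell in 52 of 77 and 69 of 77 cases, with 5 and 1 that rose and medians of -0.35 and -0.67. Mrps7 fell by 0.96 and 1.77. The interaction was negative for 16 of the 28 assembly factors, 6 of the 12 polymerase I genes and 36 of the 77 mitochondrial genes (46.8%), against 23.8% of all tested genes, and positive for 1 in each list.

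The next list held other mRNAs known to carry a TOP tract. Of 21 tested, 7 rose (33.3%) and 4 fell (19.0%) in EV-proficient cells, near the 31.1% and 27.1% of all tested genes, with a median of 0.08. In EV-deficient cells 2 rose and 14 fell (66.7%, against 30.5% of all tested genes; median -0.41). The interaction was negative for 15 (71.4%, against 23.8%) and positive for 1. Eef2, the elongation factor that moves the ribosome along, rose by 0.19 and fell by 0.63. Gas5, a noncoding host of small nucleolar RNAs, rose under both labels (1.10 and 0.71), and Vim, the intermediate filament vimentin, fell only under the first (-1.69 against -0.09, interaction 1.6 ± 0.08, SE). The 7 elongation factors, 5 of which are also in the TOP list, gave 2 higher and 3 lower, then 0 higher and 6 lower. Among 16 genes of cap binding and mTORC1 signalling, 4 rose and 9 fell (56.2%), then 2 rose and 13 fell (81.2%). Ddit4, an mTORC1 inhibitor induced by stress, rose by 3.37 ± 0.17 and 1.30 ± 0.15 (SE), and Larp1 fell by 0.59 and 0.96. Of 11 chaperones and quality-control factors of ribosomal proteins, 6 and 10 fell and none rose. Grwd1, a chaperone of Rpl3, had -1.93 and -2.17.

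**Figure D5:**
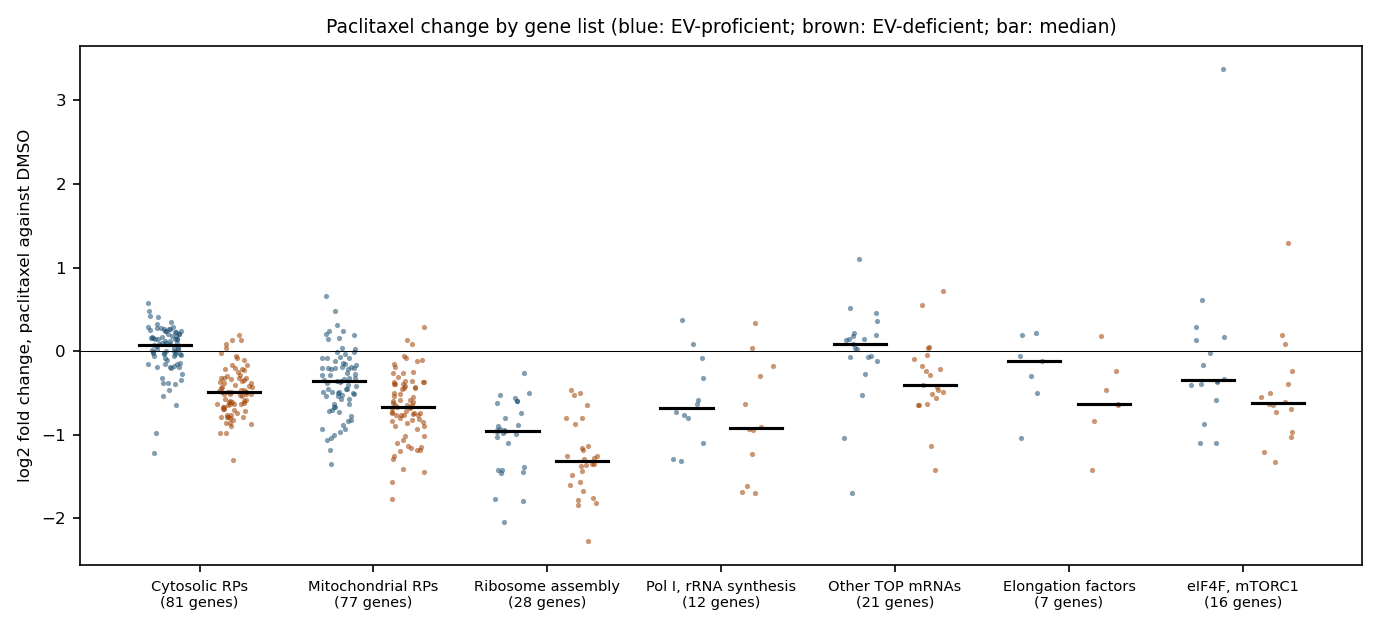
Log2 fold change of paclitaxel against DMSO (vertical axis) for the tested genes of 7 lists (horizontal axis), in EV-proficient (blue) and EV-deficient libraries (brown); points are genes and bars are medians. The median of cytosolic ribosomal proteins (RPs) is 0.08 and -0.49, that of ribosome assembly -0.95 and -1.32, and that of other TOP mRNAs 0.08 and -0.41.

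The identity of the cells was read from marker lists. Of 12 squamous markers 10 were tested, with Krt8, Krt18 and Cdh1 among the most abundant, while Krt5 and Trp63, which define basal squamous cells, had group means of at most 0.10 and 0.14 CPM. The summed level of the list was 6032 to 6470 CPM in EV-proficient DMSO, 4422 to 4745 in EV-proficient paclitaxel, 6531 to 7049 in EV-deficient DMSO and 3746 to 3962 in EV-deficient paclitaxel. It thus moved in the same direction as the ribosomal proteins in EV-deficient cells. There 9 of 10 markers were lower and 1 higher, against 30.5% and 32.4% of all tested genes. In EV-proficient cells 6 were lower and 3 higher, against 27.1% and 31.1% of all tested genes. The interaction was called negative for 7 and positive for 3, against 23.8% and 16.9%. Its median was -0.73, the direction of the members' median. The part of this list in the result was not tested. Markers of other cell types were low, and some moved between groups. The 7 leukocyte markers summed to 1.31 to 1.58 CPM in EV-proficient DMSO, 12.1 to 13.7 in EV-proficient paclitaxel, 13.1 to 13.6 in EV-deficient DMSO and 5.21 to 7.87 in EV-deficient paclitaxel. That sum thus also rose with paclitaxel in EV-proficient and fell in EV-deficient libraries. Most of it was Csf1r, the receptor of macrophage colony-stimulating factor, with group means of 0.94, 11.6, 12.4 and 5.33 CPM in the same order and an interaction of -4.85. Ptprc, which encodes the pan-leukocyte marker CD45, had group means of at most 1.01 CPM and an interaction of -1.52, and the other 5 markers were not tested, with group means of at most 0.28 CPM in any row. Both tested leukocyte markers were called negative in the interaction, as were 23.8% of all tested genes. The fibroblast sum was higher with paclitaxel under both labels, at 1.58 to 2.52 against 5.38 to 6.38 CPM in EV-proficient and 2.67 to 3.33 against 7.11 to 8.64 CPM in EV-deficient libraries. Of its 5 tested genes 2 and 3 were higher and 0 lower, against 31.1% and 32.4% of all tested genes higher. Endothelial and muscle markers summed to at most 4.26 and 1.54 CPM in any library, with 3 of 3 and 1 of 3 genes tested. The part of these markers in the members' changes was not tested.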

How the data were processed

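Polyadenylated RNA was made into stranded libraries, per the labels' protocols, and the authors deposited raw counts, 1 whole number for each gene and library. The submitters' processing notes name STAR 2.5.0a and GRCm38. The counter, annotation release and strand setting are not given in the sources used here. The 2 added rows (gfp, dngfr) stayed out of library sizes and tests. Rows without a symbol held at most 0.102% of a library.

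Counts were analysed with edgeR 4.0.16 in R 4.3.3: filterByExpr with a minimum count of 10, which kept 18108 genes, trimmed mean of M values scaling, and 1 quasi-likelihood fit of the 4 group means to all 12 libraries. Adjusted p-values (Benjamini-Hochberg, over every tested gene) were called at 0.05. The scripts were tested on simulated data. Alternatives were other scalings, filters, DESeq2 1.42.0, limma-voom (limma 3.58.1), the replicate block, GC offsets and leaving out each library.

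Genes named in the text are the 4 highest and 4 lowest members called in a comparison, and a fixed set of paralogues, P-stalk, 5S-binding, ubiquitin-fusion genes and Rps6. From other lists they are called genes at the ends of their list. The members Rpl7, Rpl13a, Rpl24, Rpl26, Rpl27a, Rpl30, Rpl35, Rps2, Rps3, Rps3a1, Rps24, Rps27 and Rpsa, and Npm1, Eef2, Larp1 and the markers, fall outside this rule and were named after their values were seen. The members and lists were chosen with earlier results of these data known. Transcript GC content, length and overlap came from GENCODE M21 (GRCm38), and start regions from RefSeq. No 2 libraries of a group agreed within sampling noise (chi-square per degree of freedom 4.49 to 31.3).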

Additional observations from a re-analysis of the deposited data

Results flagged for a closer look

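The paclitaxel effect differed between the EV labels by the interaction test for 1 member upwards and 72 downwards of 81, against 16.9% and 23.8% of all tested genes. Among the named members the interaction was 0.48 for Rpl21, -1.02 for Rpl36, -0.95 for Rps19, -0.94 for Rplp2, -0.93 for Rps9, -0.83 for Fau, -0.70 for Rplp1, -0.68 for Rps6, -0.66 for Rps27a, -0.61 for Rplp0, -0.51 for Rpl5, -0.44 for Rpl11 and -0.32 for Rpl7l1, all as log2 differences. All of them compare libraries by the deposited EV labels.

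The dngfr row, which no comparison used, had reads in every library. With its counts set over the library total, the highest CPM among the DMSO libraries was 11.4 (EV-proficient) and 2.33 (EV-deficient), and among the paclitaxel libraries 4.0 and 14.2, and the gfp row held 0 counts in all 12. What the dngfr sequence was used for is not given in the sources used here.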

How the results depend on the processing

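The fall of the members with paclitaxel in EV-deficient cells (70), their lower level in EV-deficient paclitaxel (71) and the negative interaction (72) stayed within 1.5 times of the count in all settings run, except 43 for the first on library totals. Leaving out single libraries gave 67 to 71, 65 to 72 and 67 to 74 for these, 0 to 3, 0 to 1 and 1 to 2 for the opposite direction, and 53 to 58 lower and 3 to 6 higher for the average effect. There were 3 higher without EV-proficient DMSO 1, EV-proficient paclitaxel 1 or 2, EV-deficient DMSO 1 or 2, or EV-deficient paclitaxel 1 or 2, and 2 with a positive interaction without EV-proficient paclitaxel 2 or EV-deficient paclitaxel 3. In EV-proficient cells the calls higher (28) ranged from 10 to 31 and lower (16) from 11 to 24. They were 17, 14, 10 and 18 higher without EV-proficient DMSO 3, EV-proficient paclitaxel 1, EV-proficient paclitaxel 2 and EV-deficient paclitaxel 1. Under DMSO, calls higher ranged from 8 to 34 and lower from 1 to 2, with 2 without EV-proficient paclitaxel 2 or 3 or any EV-deficient paclitaxel library. The shares of all tested genes are not set beside these counts without single libraries. The cause was not tested.

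Of the joint counts, chosen after seeing the data, members higher in EV-proficient and lower in EV-deficient cells (21) ranged from 6 to 25 without single libraries and were 5 with the offset not centred. Those only lower in EV-deficient cells (34) ranged from 35 to 46 and were 19 on library totals. Those lower in both (15) ranged from 10 to 23 and were 9 with upper-quartile scaling, 4 on library totals and 34 with the offset not centred. Those only higher in EV-proficient cells (7) ranged from 4 to 9 and were 18 with upper-quartile scaling, 24 on library totals and 0 with the offset not centred.

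Library totals gave 52 higher and 6 lower in EV-proficient cells, 10 higher in EV-deficient cells, 2 lower under DMSO, 2 with a positive interaction, and 33 higher and 24 lower on average. Upper-quartile scaling gave 6 higher in EV-deficient cells, 2 lower under DMSO, 2 with a positive interaction, 16 higher on average, and 15 members in the order that 27 held, behind orders held by 20 and 17. A filter of 1 CPM gave 4 higher in EV-deficient cells and 2 with a positive interaction. DESeq2 gave 2 for the positive interaction and 2 lower under DMSO, and so did fitting only the groups compared for the latter. No low-count filter gave 0 higher in EV-deficient cells and 47 higher under DMSO. The GC offset gave 2 higher in EV-deficient paclitaxel. The offset not centred gave 5 higher and 35 lower in EV-proficient cells, 0 higher in EV-deficient cells, 15 higher under DMSO and 0 higher on average.

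Signs turned mostly for values near 0; the exception is Rpl23 in EV-deficient cells, called higher at 0.19 and called lower with the offset not centred. For paclitaxel in EV-proficient cells these were Rplp0 (0.12), Rplp1 (0.14), Rpl11 (0.052) and Fau (0.042) on library totals, Rplp1 with upper-quartile scaling (0.0013), and Rplp2 with the offset not centred (-0.049). In EV-deficient cells they were Rpl23 with the offset not centred (-0.21) and Rpl5 with upper-quartile scaling (0.099) and on library totals (0.24). Between EV labels they were Rps27l under paclitaxel with each GC offset (-0.063 and -0.20). For the interaction they were Rpl22l1 (0.065 with upper-quartile scaling, 0.070 on library totals) and Rps27l (0.014 with median-of-ratios scaling and with DESeq2, 0.021 with the 1 CPM filter, 0.093 with upper-quartile scaling and 0.098 on library totals). Without single libraries the values ran from -0.19 to 0.029 for Rplp1 and -0.068 to 0.24 for Rplp2 (EV-proficient cells), from -0.15 to 0.0021 for Rpl5 (EV-deficient cells), from -0.11 to 0.0006 for Rpl22l1 (under DMSO), from -0.029 to 0.11 for Rps27l (under paclitaxel), and, for the interaction, from -0.13 to 0.076 for Rpl22l1 and from -0.075 to 0.078 for Rps27l.

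The fit with the replicate block gave 29 higher and 17 lower in EV-proficient, 1 and 70 in EV-deficient cells, 30 and 1 under DMSO, 1 and 72 under paclitaxel, 1 and 72 for the interaction, and 6 and 57 on average. Same-numbered libraries correlated between -0.081 and 0.097 over all tested genes in 18 pairs, 0 of them over 0.1. A shared effect on the members alone was not tested, and the labels do not say whether equal numbers mark a shared batch. Of 1833 values of named members under alternatives, 1709 kept their direction and side of the threshold. Low counts limit Rpl24 and Rps10, and 3 members could not be tested.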
